A study of Homo sapiens with 12 samples.

Results

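The genes described here encode proteins that fold, modify, export or destroy new proteins in the endoplasmic reticulum (ER), or that sense and report unfolded proteins in it. The list named 34 genes by these roles, and 33 of them had an identifier in both tables, out of 59424 genes in all. DERL3 found no match by name and is not analysed here. All 33 reached the minimum mean normalised count of 5 and were tested in both comparisons.

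RNA-seq was carried out in cultured prostate cancer lines stably transduced with lentivirus. In CWR22RV1, a human prostate carcinoma line, cells with knockdown of GALNT7 (GALNT7 KD) were compared to cells carrying a non-targeting hairpin construct (Lenti-shControl, here shControl). In DU145, another human prostate carcinoma line, cells overexpressing GALNT7 (GALNT7 OE) were compared to cells with a control vector (Lenti-ORF control, here OE control). Each group had 3 libraries described as biological replicates, so that 12 libraries in 4 groups were used. The labels do not say whether a line is 1 clone or a pool, and nothing says that the replicates came from separate transductions, so the p-values measure the spread between these cultures. GALNT7 is a Golgi enzyme that adds GalNAc to proteins in O-linked glycosylation.

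Proteins that enter the secretory pathway are folded in the ER by chaperones such as BiP (HSPA5) and by disulfide isomerases, while glycoproteins are retained by calnexin and calreticulin until folded. Proteins that fail are carried back to the cytosol and degraded. When unfolded proteins accumulate, the membrane sensors IRE1 (ERN1), PERK (EIF2AK3) and ATF6 start the unfolded protein response, in which spliced XBP1 and cleaved ATF6 switch on genes for chaperones and degradation factors. Secretory epithelia such as that of the prostate depend on this machinery. Splicing of XBP1 and cleavage of ATF6 are not visible in counts per gene, so the data measure the RNA of the members only.

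The libraries held 18364512 to 22264533 recovered reads in CWR22RV1 and 21628718 to 24356910 in DU145, and the fewest reads on any member in any library were 192 (DNAJB9 in DU145). GALNT7 itself moved as labelled, with a log2 fold change of -1.11 (SE 0.129, adjusted p=0.00512) in GALNT7 KD and 1.18 (SE 0.0863, adjusted p=8e-05) in GALNT7 OE. All 3 epithelial markers were present in both lines. In DU145, the luminal prostate marker KLK3 was at 0 in all libraries, and KLK2 and FOLH1 were at most at 1.05 normalised counts. The summed level of 8 stromal, immune and endothelial markers ranged over 192 to 211 for shControl, 214 to 277 for GALNT7 KD, 2899 to 3198 for OE control and 1079 to 1252 for GALNT7 OE, and its part in the results was not tested. Mitochondrial genes took 0.879% and 0.880% of the reads in replicate 2 of shControl and of GALNT7 KD, against 1.63% to 2.64% in the other CWR22RV1 libraries, and 4.38% to 5.27% in OE control against 1.69% to 3.45% in GALNT7 OE. Fewer cells with a transcript and less of it per cell cannot be told apart in such bulk samples.

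The members included some of the most abundant transcripts of both lines. Per kb of exon, 17 of 33 in CWR22RV1 and 15 of 33 in DU145 lay among the top 10% of the genes tested, by the mean over the 6 libraries of a line. HSP90B1 (13229 ± 821 normalised counts per kb, SD, n=3) and CALR (12695 ± 457) were highest in shControl and differed by less than their spread. In OE control the order began with CALR (8027 ± 173), HSPA5 (5637 ± 33.6) and HSP90B1 (4864 ± 192). ERN1 was the lowest member per kb in both lines, at the percentiles 44.0 and 46.9 of all genes tested. Together the 33 members took 1.31% ± 0.0290 (SD, n=3) of all shControl reads against 1.67% ± 0.0340 after knockdown, and the ranges of 1.28% to 1.34% and 1.63% to 1.69% did not overlap. In DU145 the share was 0.854% ± 0.0138 in OE control and 0.902% ± 0.00482 in GALNT7 OE.

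Knockdown of GALNT7 was accompanied by higher levels of ER chaperones and folding enzymes. In GALNT7 KD, 13 of 33 members were higher and 0 were lower at a limma adjusted p under 0.05, while 9.06% of the 17906 genes tested passed, 5.28% higher and 3.79% lower. Chromosome 12 held 202 of the 678 lower genes, and of the members only HSP90B1 lies on it. Without the threshold, 31 members had positive log2 fold changes and 2 negative ones, EIF2AK3 and SEC61A1, with a median of 0.25 against -0.0063 over all genes tested. In 20 members all GALNT7 KD libraries lay above all shControl libraries, an arrangement found for 16.9% of genes, and in 1 (SEC61A1) all lay below, as for 15.6% of genes. By role, 7 of 11 chaperones and co-chaperones, 5 of 6 disulfide isomerases and folding enzymes and 1 of 6 degradation factors were higher. None of the 5 stress sensors and regulators and none of the 5 translocation, N-glycosylation and export genes passed the threshold with limma, edgeR or DESeq2, and at an unadjusted limma p under 0.05 these were 2 (ATF6 and XBP1, both higher) and 0. The median log2 fold changes of these roles were 0.44, 0.37, 0.24, 0.15 and 0.07, in the same order. At an unadjusted limma p under 0.05, 20 members were higher and 0 lower. No member was called lower under any of the alternative settings, edgeR and DESeq2 on recovered reads included, and the count of higher members ran from 9 to 16 over them.

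**Figure D1:**
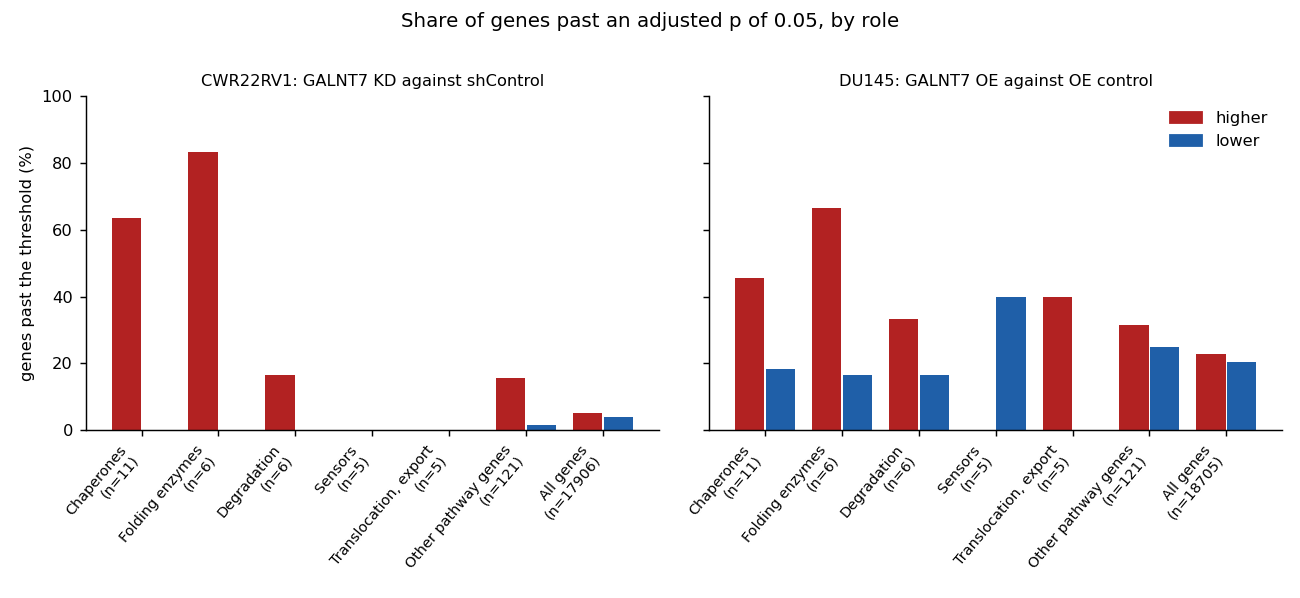
Share of genes (%) past an adjusted p of 0.05 in each role of the members, among 121 other genes of the same pathways and among all genes tested, split into higher (red) and lower (blue), for GALNT7 KD in CWR22RV1 and GALNT7 OE in DU145. In knockdown the chaperones (63.6%) and folding enzymes (83.3%) stand above all genes (5.28% higher), while the sensors and the translocation and export genes have no bar.

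Among the chaperones, HSPA5, the ER member of the HSP70 family and the central chaperone of the response, had the highest log2 fold change of all members. HSPA5 (ENSG00000044574; hg38 chromosome 9, 125234853 to 125241330, minus strand) was at 23538, 24027 and 23441 normalised counts in shControl and at 39440, 39025 and 38005 in GALNT7 KD. The groups lay far apart, with a 1.64-fold difference (log2 fold change 0.71, SE 0.0268, adjusted p=6.9e-05). MANF, a small ER protein that is secreted under stress and binds BiP, was at 6673, 6966 and 6751 in shControl and at 11085, 11599 and 10535 in GALNT7 KD (log2 fold change 0.70, SE 0.0461, adjusted p=0.0007). Its libraries also did not overlap. These were the members with the largest changes in knockdown, and both passed under all 18 alternative settings.

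The co-chaperones of BiP moved less. DNAJC3, an ER-luminal DNAJ protein also known as an inhibitor of PERK, was at 2169, 2286 and 2135 in shControl and at 3316, 3249 and 2883 in GALNT7 KD (log2 fold change 0.52, SE 0.0689, adjusted p=0.0084). DNAJB11, which hands clients to BiP, was at 2591, 2334 and 2385 and then at 3395, 3127 and 3236 (0.42, SE 0.0613, adjusted p=0.0113). HYOU1, a large HSP70-like protein that exchanges the nucleotide of BiP, was at 14490, 12424 and 13836 and then at 17967, 17467 and 19721 (0.44, SE 0.0699, adjusted p=0.0144). In all 3 genes every GALNT7 KD library lay above every shControl library. Leaving out GALNT7 KD replicate 1 ended the calls of DNAJB11 and HYOU1, with adjusted p up to 0.056.

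CALR (calreticulin), the soluble lectin chaperone of the ER, was at 33333, 35788 and 34244 in shControl and at 47290, 44574 and 50279 in GALNT7 KD (log2 fold change 0.46, SE 0.0493, adjusted p=0.00397). CRELD2, an ER protein induced by ER stress, was at 5180, 4823 and 4705 and then at 6706, 6272 and 7564 (0.48, SE 0.0769, adjusted p=0.0146). Both genes were higher in every GALNT7 KD library, with the lowest value of each in replicate 2. The call of CRELD2 was lost without GALNT7 KD replicate 1, shControl replicate 2 or shControl replicate 3, at an adjusted p up to 0.058.

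The other 4 chaperones did not pass. SDF2L1, a partner of DNAJB11, was at 791 to 830 in shControl and 907 to 1266 in GALNT7 KD (0.43, adjusted p=0.0795), and DNAJB9, a BiP cofactor that restrains IRE1, at 250 to 291 and 299 to 361 (0.31, adjusted p=0.155). For CANX (calnexin), the membrane-bound lectin chaperone, shControl held 11796, 11547 and 11395 normalised counts, and GALNT7 KD 16387, 11310 and 15869 (0.31, adjusted p=0.207). GALNT7 KD replicates 1 and 3 were thus above all controls and replicate 2 below them. CANX and SDF2L1 passed when GALNT7 KD replicate 2 was left out. HSP90B1 (GRP94), the ER member of the HSP90 family, was at 60995, 66401 and 58940 and then at 68309, 64844 and 67188 (0.11, SE 0.0465, adjusted p=0.207), with overlapping groups. HSP90B1 lies on chromosome 12, whose 922 genes tested had a median log2 fold change of -0.28 in GALNT7 KD against 0.0063 for genes elsewhere. Its value was above that of 88.0% of the genes of that chromosome.

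**Figure D2:**
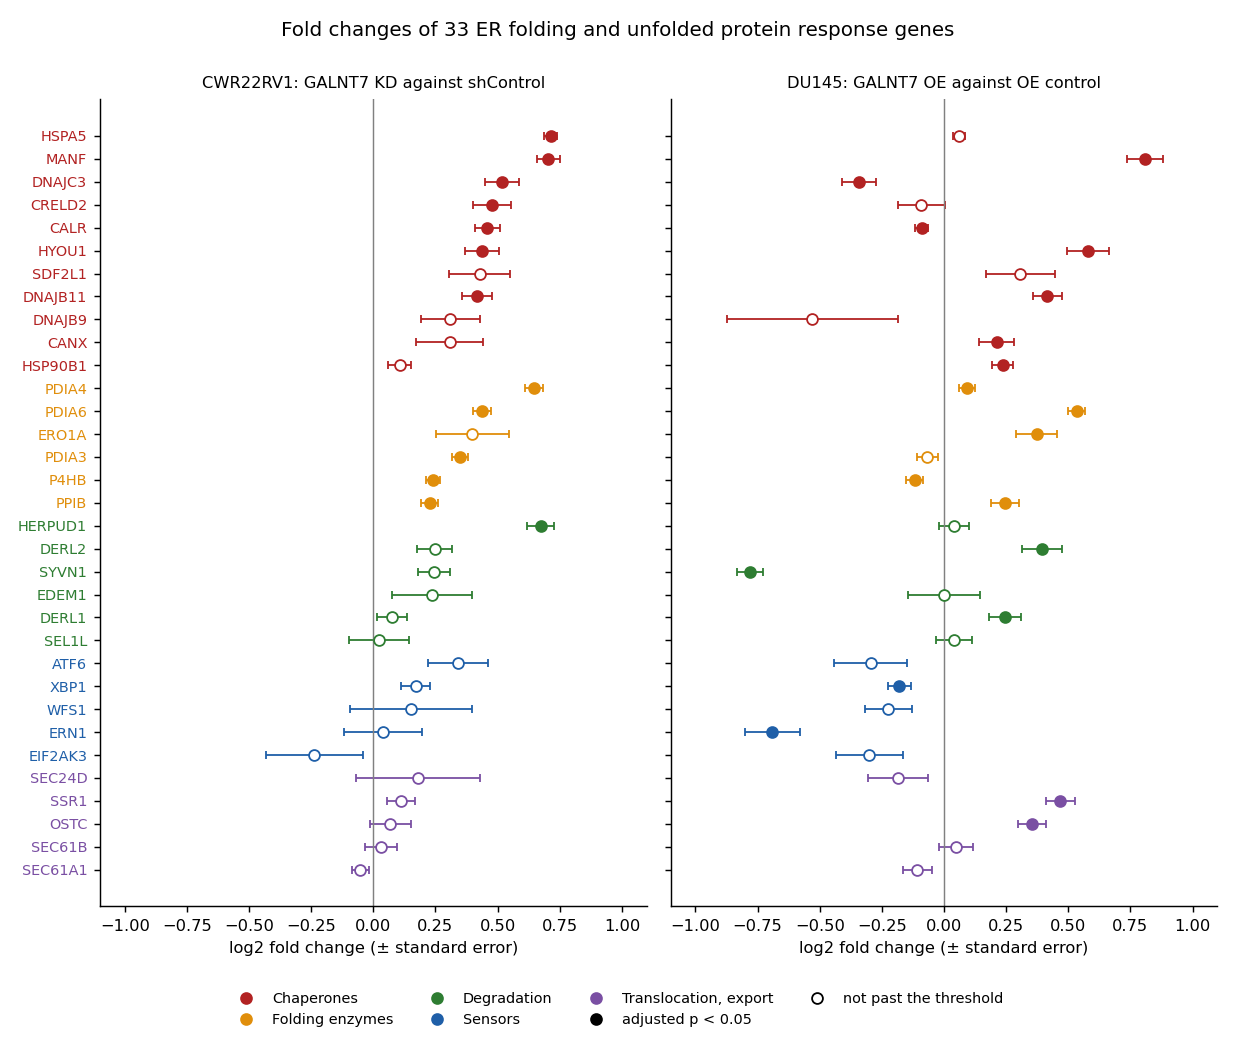
Log2 fold change (x axis, with its standard error as the bar) of each of the 33 members (y axis), coloured by role, in GALNT7 KD against shControl (left) and GALNT7 OE against OE control (right); filled points passed an adjusted p of 0.05. On the left all filled points lie to the right of 0, from 0.23 to 0.71, and on the right 13 lie above 0 and 6 below, with all 5 sensors on the negative side.

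All 4 disulfide isomerases of the list rose in GALNT7 KD. PDIA4 (ERp72) was at 13260, 12804 and 13259 in shControl and at 20530, 19807 and 21185 in GALNT7 KD (log2 fold change 0.65, SE 0.0363, adjusted p=0.00044). PDIA6, an isomerase that also acts on IRE1, was at 8153, 8268 and 8050 and then at 11449, 10847 and 10869 (0.44, SE 0.0372, adjusted p=0.00195). PDIA3 (ERp57), which works with calnexin and calreticulin, was at 15915, 15518 and 15157 and then at 19930, 20011 and 19377 (0.35, SE 0.0322, adjusted p=0.00262). All 3 had replicates close together and no overlap between groups. P4HB, the archetypal protein disulfide isomerase, showed a smaller difference with little spread, from 13436, 13409 and 13322 to 16015, 15625 and 15754 (0.24, SE 0.0285, adjusted p=0.00595).

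The prolyl isomerase PPIB (cyclophilin B) was at 13704, 13834 and 12988 in shControl and at 15890, 15925 and 15573 in GALNT7 KD (0.23, SE 0.0357, adjusted p=0.0138). This 1.17-fold difference was the smallest one called, and it was lost without GALNT7 KD replicate 1 or shControl replicate 1 (adjusted p up to 0.066). ERO1A, the oxidase that reloads the isomerases, was at 880, 1083 and 719 and then at 1144, 1233 and 1112 (0.40, SE 0.147, adjusted p=0.146). The range within shControl was wider than the distance between the group means.

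HERPUD1 alone passed among the degradation factors. This membrane protein, which gathers the HRD1 complex and is a known target of the response (ENSG00000051108; hg38 chromosome 16, 56932048 to 56944863, plus strand), was at 1682, 1664 and 1601 in shControl and at 2699, 2646 and 2544 in GALNT7 KD (log2 fold change 0.67, SE 0.0530, adjusted p=0.00148). SYVN1, the ubiquitin ligase HRD1, was at 1363 to 1475 and 1585 to 1747 (0.24, adjusted p=0.0661), and DERL2, a rhomboid-like protein of the retrotranslocation channel, at 685 to 761 and 840 to 873 (0.25, adjusted p=0.0806). The groups of these last genes did not overlap, yet the differences did not pass, and with DESeq2 on the recovered reads both did. EDEM1, a mannosidase-like protein that marks glycoproteins for disposal (0.24, adjusted p=0.404), DERL1 (0.08, adjusted p=0.471) and SEL1L, the adaptor of HRD1 (0.02, adjusted p=0.931), overlapped between groups.

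The sensors themselves were not called in GALNT7 KD. ATF6 was at 1356, 1476 and 1112 in shControl and at 1735, 1742 and 1490 in GALNT7 KD (0.34, SE 0.120, adjusted p=0.134), and XBP1, the transcription factor activated by IRE1, at 1884, 2006 and 1987 and then at 2266, 2251 and 2101 (0.17, SE 0.0579, adjusted p=0.12). Their groups did not overlap. WFS1 (wolframin), an ER membrane protein that restrains ATF6, had a log2 fold change of 0.15 (SE 0.245) and ERN1 one of 0.04 (SE 0.158). EIF2AK3 was the member with the most negative value (-0.24, SE 0.194, adjusted p=0.491). With standard errors this large, a change of the size seen in PPIB was not detectable for WFS1, ERN1 or EIF2AK3.

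The genes of translocation and export stayed nearest to 0. SEC61A1 and SEC61B, subunits of the channel through which proteins enter the ER, had log2 fold changes of -0.05 (SE 0.0344, adjusted p=0.384) and 0.03 (SE 0.0645, adjusted p=0.811). SSR1, of the complex beside that channel, stood at 0.11 (SE 0.0550, adjusted p=0.258), OSTC, of the oligosaccharyltransferase, at 0.07 (SE 0.0833, adjusted p=0.653) and SEC24D, a cargo adaptor of export vesicles, at 0.18 (SE 0.250, adjusted p=0.703). SEC24D ranged from 430 to 757 in shControl and from 589 to 893 in GALNT7 KD, and had the largest standard error of the 5 on the log2 scale.

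**Figure D3:**
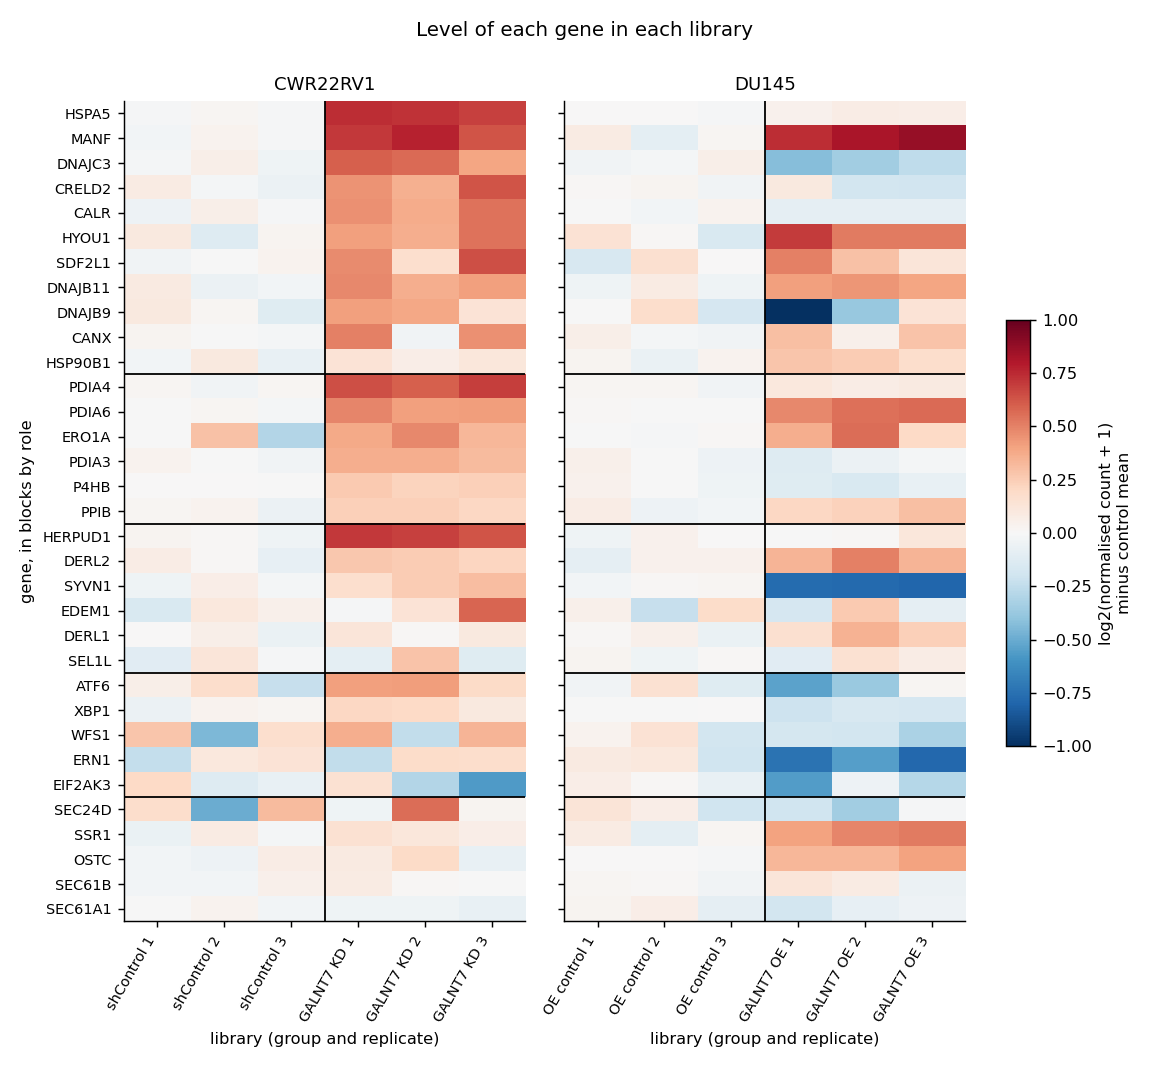
Level of each member (rows, in blocks by role) in each of the 12 libraries (columns), as log2(normalised count + 1) minus the mean of the line's 3 control libraries; colours end at 1 and -1, and DNAJB9 in GALNT7 OE replicate 1 lies beyond. The upper blocks are red in all GALNT7 KD libraries except CANX in replicate 2, and the block of sensors is mostly blue in GALNT7 OE.

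Overexpression of GALNT7 in DU145 showed a mixed pattern against a much wider change of the transcriptome. In GALNT7 OE, 19 of 33 members passed, 13 higher and 6 lower, while 43.5% of the 18705 genes tested passed, 22.9% higher and 20.5% lower. The split of the members depended on scaling, at 9 higher and 10 lower with 75th percentile scaling and 9 and 9 with quantile normalisation, where the split over all genes went from 4290 higher and 3842 lower to 3380 and 4736 with 75th percentile scaling and to 4124 and 3707 with quantile normalisation. Under each of these settings CANX, DERL1, PDIA4 and PPIB lost their calls, and PDIA3, SEC61A1 and WFS1 were called lower. EIF2AK3 was also called lower with 75th percentile scaling. The median log2 fold change of the members was 0.04 against -0.01 over all genes in the main fit. All GALNT7 OE libraries lay above all OE control libraries in 13 members, as in 28.2% of genes, and below them in 6, as in 27.1% of genes. Higher calls came from 5 of 11 chaperones, 4 of 6 folding enzymes, 2 of 6 degradation factors and 2 of 5 translocation and export genes. None of the 5 sensors was higher with limma, edgeR or DESeq2, nor at an unadjusted limma p under 0.05, 2 were lower (3 at that p, with WFS1), and all 5 had negative log2 fold changes with a median of -0.30, from -0.69 to -0.18.

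MANF had the highest log2 fold change of the members in overexpression, at 925, 818 and 887 normalised counts in OE control and 1458, 1546 and 1600 in GALNT7 OE (log2 fold change 0.81, SE 0.0715, adjusted p=0.00018). HYOU1 was at 8024, 7346 and 6533 and then at 11801, 10407 and 10443 (0.58, SE 0.0851, adjusted p=0.00172), and DNAJB11 at 1228, 1340 and 1224 and then at 1676, 1713 and 1665 (0.42, SE 0.0589, adjusted p=0.00148). These 3 chaperones were higher in every GALNT7 OE library. HSP90B1 was at 23294, 21799 and 23419 in OE control and 27665, 27214 and 25765 in GALNT7 OE (0.24, SE 0.0416, adjusted p=0.00389), again with no overlap. CANX passed by a small margin (0.21, SE 0.0704, adjusted p=0.0466), with GALNT7 OE replicate 2 at 9170 inside the range of OE control, whose libraries held 9177, 8722 and 8602, and replicates 1 and 3 at 10875 and 10738. Its call was lost without any 1 library other than GALNT7 OE replicate 2 (adjusted p up to 0.13).

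HSPA5 moved little in DU145. It was at 22138, 22067 and 21884 in OE control and at 22644, 23172 and 23126 in GALNT7 OE (log2 fold change 0.06, SE 0.0252, adjusted p=0.0921). The groups did not overlap, but the sign turned with 75th percentile scaling (-0.038). DNAJC3 was lower, from 1305, 1316 and 1389 to 992, 1053 and 1122 (-0.34, SE 0.0680, adjusted p=0.00646), and this call held under all 17 alternative settings. CALR was also lower, by less, from 21775, 21323 and 22260 to 20468, 20467 and 20452 (-0.09, SE 0.0276, adjusted p=0.0351), but its call was lost without any 1 of the 6 libraries (adjusted p up to 0.13). SDF2L1 (0.31, adjusted p=0.119), CRELD2 (-0.09, adjusted p=0.473) and DNAJB9 (-0.53, SE 0.346, adjusted p=0.259) did not pass. DNAJB9 was at 489, 551 and 434 in OE control and at 192, 375 and 537 in GALNT7 OE, so that its replicates in the latter group differed by more than the groups did.

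Of the folding enzymes, PDIA6 was at 10671, 10574 and 10548 in OE control and 14800, 15537 and 15708 in GALNT7 OE (0.53, SE 0.0340, adjusted p=4.4e-05). ERO1A was at 5824, 5804 and 5888 and then at 7494, 8577 and 6714 (0.37, SE 0.0843, adjusted p=0.0111), and PPIB at 2146, 1959 and 1998 and then at 2344, 2381 and 2507 (0.25, SE 0.0570, adjusted p=0.0123). In these genes the groups were apart, although PPIB lost its call with 75th percentile scaling and with quantile normalisation. PDIA4 was at the edge of the threshold (0.09, SE 0.0313, adjusted p=0.0499), from 12664, 12620 and 12165 to 13457, 13168 and 13296, and its value was -0.0069 with 75th percentile scaling. P4HB was lower, from 24826, 24042 and 23300 to 22088, 21589 and 22797 (-0.12, SE 0.0355, adjusted p=0.0326), and PDIA3 was not called (-0.07, SE 0.0414, adjusted p=0.234). PDIA4 lost its call without any 1 of the 6 libraries, and P4HB without 4 of them, namely GALNT7 OE replicates 1 and 2 and OE control replicates 1 and 2.

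SYVN1 had the largest decrease of the members. This gene (ENSG00000162298; hg38 chromosome 11, 65121780 to 65134533, minus strand) was at 1795, 1846 and 1853 normalised counts in OE control and at 1072, 1069 and 1055 in GALNT7 OE (log2 fold change -0.78, SE 0.0504, adjusted p=4.6e-05), and it passed under all 17 alternative settings. The derlins went the other way. DERL2 was at 599, 655 and 657 and then at 805, 904 and 806 (0.39, SE 0.0800, adjusted p=0.00696), and DERL1 at 1980, 2034 and 1878 and then at 2189, 2495 and 2311 (0.25, SE 0.0654, adjusted p=0.021). Every GALNT7 OE library was above every OE control library in both, although DERL1 lost its call without OE control replicate 1, OE control replicate 3 or GALNT7 OE replicate 2 (adjusted p up to 0.07). HERPUD1 (0.04, adjusted p=0.617), SEL1L (0.04, adjusted p=0.696) and EDEM1 (0.00085, adjusted p=0.997) overlapped between groups.

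Among the sensors, ERN1 (ENSG00000178607; hg38 chromosome 17, 64039142 to 64130819, minus strand) was at 958, 965 and 785 in OE control and 538, 614 and 522 in GALNT7 OE (log2 fold change -0.69, SE 0.110, adjusted p=0.00247). XBP1 was at 1932, 1937 and 1948 and then at 1681, 1733 and 1721 (-0.18, SE 0.0465, adjusted p=0.0188). Both were lower in every GALNT7 OE library. The call of XBP1 was lost without any 1 of the 3 OE control libraries (adjusted p up to 0.061), and that of ERN1 was kept throughout. ATF6 (-0.30, SE 0.147, adjusted p=0.15), EIF2AK3 (-0.30, SE 0.136, adjusted p=0.117) and WFS1 (-0.22, SE 0.0944, adjusted p=0.0962) did not pass. ATF6 in GALNT7 OE replicate 3 (1921) lay within the range of OE control, 1746 to 2110, and the other replicates (1306 and 1466) lay below it. The sensors and regulators together took 0.0283% to 0.0325% of reads in OE control and 0.0232% to 0.0254% in GALNT7 OE.

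SSR1 was at 4003, 3544 and 3833 in OE control and 5004, 5303 and 5428 in GALNT7 OE (log2 fold change 0.47, SE 0.0592, adjusted p=0.00086), and OSTC at 854, 857 and 848 and then at 1071, 1075 and 1127 (0.35, SE 0.0575, adjusted p=0.00268). Both were higher in all GALNT7 OE libraries, unlike the channel subunits SEC61A1 (-0.11, SE 0.0576, adjusted p=0.178) and SEC61B (0.05, SE 0.0693, adjusted p=0.611), whose groups overlapped. SEC24D was not called (-0.19, SE 0.120, adjusted p=0.253).

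**Figure D4:**
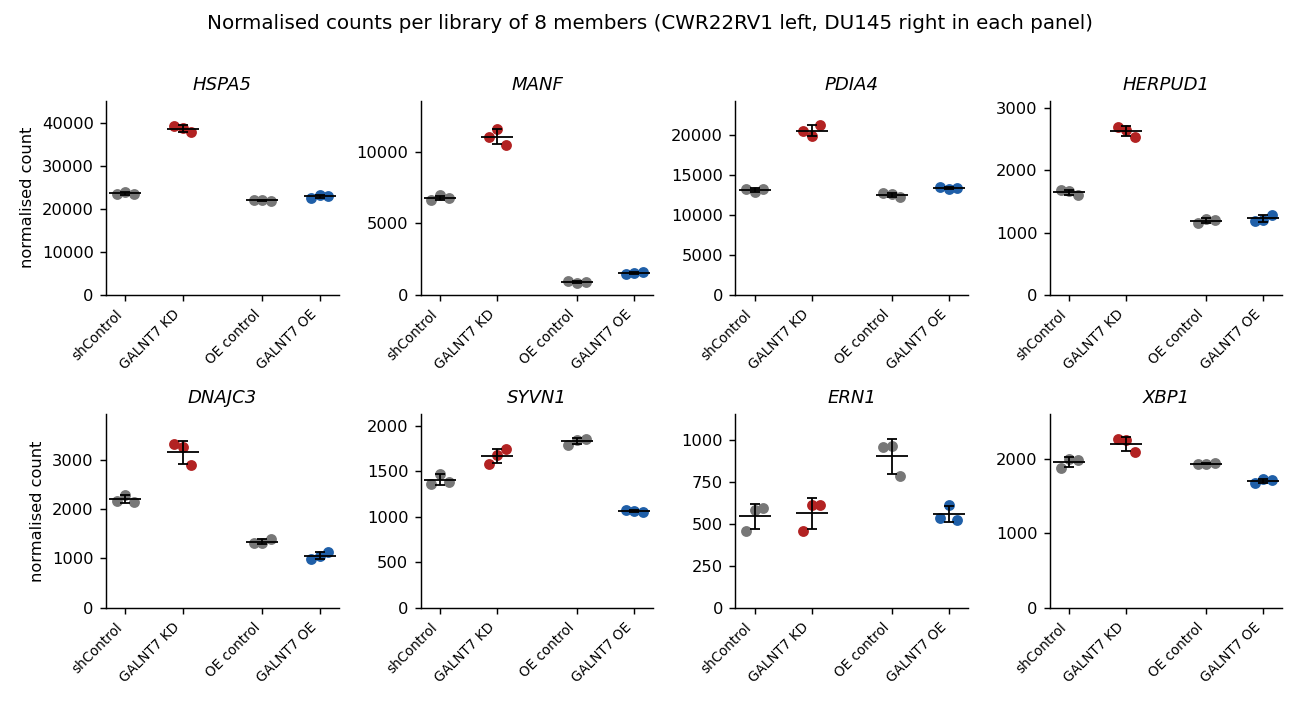
Normalised counts (y axis, from 0) of 8 members in each library (points), with the mean and SD of each group (black), in shControl and GALNT7 KD (CWR22RV1) and OE control and GALNT7 OE (DU145); the lines were normalised separately, so heights compare within a line only. HSPA5, PDIA4 and HERPUD1 are apart in knockdown and nearly level in overexpression, MANF is higher in both, and SYVN1, ERN1 and XBP1 are lower in GALNT7 OE.

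The comparisons share no libraries, so the calls of a member can be set side by side. Knockdown was made only in CWR22RV1 and overexpression only in DU145, each with its own construct and control. For shared or differing calls, the direction of the GALNT7 change therefore cannot be told apart from the line. Of the 13 members higher in GALNT7 KD, 6 were also higher in GALNT7 OE (DNAJB11, HYOU1, MANF, PDIA4, PDIA6 and PPIB), 3 were lower (CALR, DNAJC3 and P4HB) and 4 were not called (CRELD2, HERPUD1, HSPA5 and PDIA3). Over the 16124 genes tested in both, those higher in GALNT7 KD split into 278 higher in GALNT7 OE, 254 lower and 325 not called. As shares of all 16124 genes, 1.72% were higher in both and 1.58% were higher in GALNT7 KD and lower in GALNT7 OE. Whether the 13 members split differently was not tested. Another 7 members were higher in GALNT7 OE only (CANX, DERL1, DERL2, ERO1A, HSP90B1, OSTC and SSR1), 3 were lower in GALNT7 OE only (ERN1, SYVN1 and XBP1), and 10 passed in neither comparison. Over all genes tested in both, 22.6% were higher in GALNT7 OE only, a share close to that of the members (7 of 33), 17.5% were lower in it only and 50.8% passed in neither. For HSPA5, HERPUD1 and the others called in 1 comparison, the difference between the comparisons was not tested. Across the 33 members the log2 fold changes correlated weakly (Pearson r=0.28, Spearman rho=0.25), which is a description over genes that are not independent replicates.

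**Figure D5:**
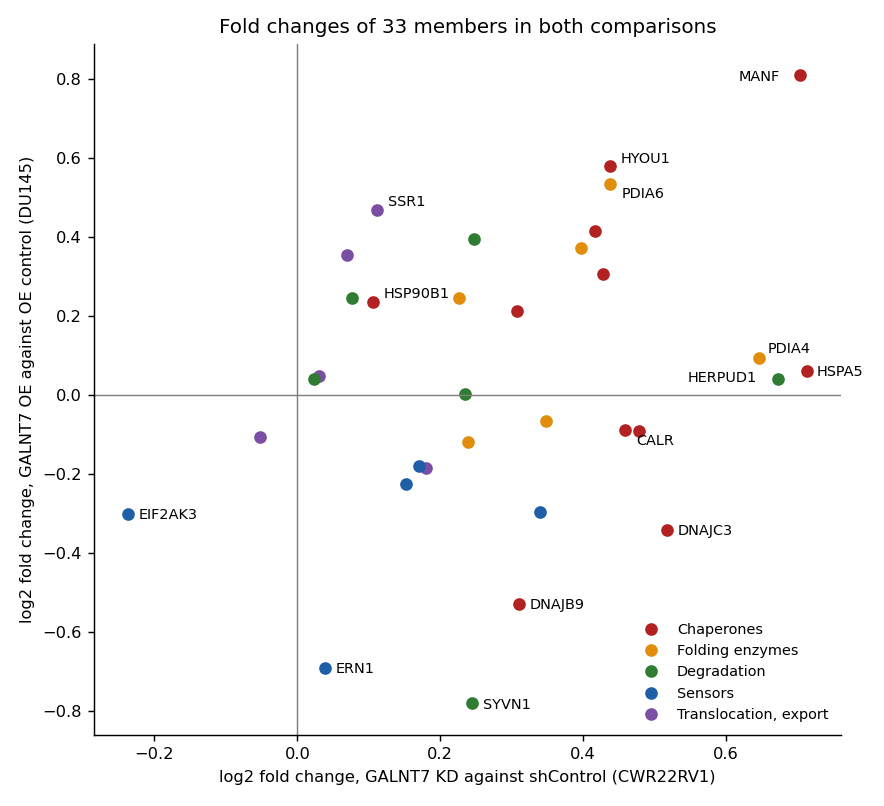
Log2 fold change of each of the 33 members in GALNT7 KD (x axis, CWR22RV1) and in GALNT7 OE (y axis, DU145), coloured by role. MANF (0.70 and 0.81) lies at the upper right, HSPA5 (0.71 and 0.06) on the right near the horizontal line, DNAJC3 (0.52 and -0.34) below it, and SYVN1 (0.24 and -0.78) at the bottom.

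Many members are known targets of ATF6 and XBP1, which act through the ER stress response element (ERSE). Promoters were therefore read from RefSeq (GRCh38.p14), from 250 bases before to 50 bases after each listed transcription start, and 30 of the 34 members matched by symbol, with 37 windows. PDIA3, DERL1, DERL3 and SEC24D had no entry. The motifs below were searched on both strands, counting a gene once if any of its windows held the motif. The ERSE, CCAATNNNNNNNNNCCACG, was found in 7 of 30 members (23.3%) and in 25 of all 27305 genes (0.0916%). ERSE-II, ATTGGNCCACG, was found in 3 of 30 (10%) and in 0.0696% of genes, and the core of the unfolded protein response element, TGACGTGG, in 1 of 30 (HYOU1, 3.33%) and in 0.927%. CCACG alone, which is part of the first pair, was in 76.7% of the members and 42.1% of all genes. Because the list holds many known targets of ATF6 and XBP1, a higher share of ERSE and ERSE-II among members follows from its choice. These shares describe the list and not a response to GALNT7.

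The stretches below are shown because they hold these elements in members that rose in GALNT7 KD; capitals mark the fixed letters of the element, and positions count from -1 for the base before the start.
HSPA5, ERSE, chr9:125241383-125241417, minus strand, -74 to -40: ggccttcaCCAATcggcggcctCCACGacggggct
CALR, ERSE on the opposite strand, chr19:12938376-12938410, plus strand, -233 to -199: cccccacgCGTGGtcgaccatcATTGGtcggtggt
CRELD2, ERSE on the opposite strand, chr22:49918546-49918580, plus strand, -88 to -54: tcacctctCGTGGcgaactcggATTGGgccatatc
PDIA6, ERSE, chr2:10812845-10812879, minus strand, -94 to -60: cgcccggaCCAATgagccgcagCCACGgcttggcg
HERPUD1, ERSE-II, chr16:56932017-56932043, plus strand, -125 to -99: ggacgccgATTGGgCCACGttgggaga
HYOU1, ERSE-II on the opposite strand, chr11:119057372-119057398, minus strand, -193 to -167: ccccgtgaCGTGGtCCAATcccaggcc
HYOU1, ERSE-II on the opposite strand, chr11:119057266-119057292, minus strand, -87 to -61: gcctgggaCGTGGtCCAATgagtacgc

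Members with the same elements that did not pass in GALNT7 KD were HSP90B1 (2 ERSE), CANX (in 1 of 4 windows), XBP1 and SDF2L1 (ERSE-II). The stretches of HSP90B1 and XBP1 are printed for comparison with those above.
HSP90B1, both ERSE, chr12:103930208-103930347, plus strand, -202 to -63: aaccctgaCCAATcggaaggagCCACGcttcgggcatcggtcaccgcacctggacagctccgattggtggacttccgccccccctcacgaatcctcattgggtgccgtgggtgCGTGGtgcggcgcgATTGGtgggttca
XBP1, ERSE, chr22:28800595-28800629, minus strand, -60 to -26: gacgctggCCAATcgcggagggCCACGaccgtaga

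Of the 10 members with an ERSE or ERSE-II, 6 were higher in GALNT7 KD, with a median log2 fold change of 0.44 and a range of 0.11 to 0.71. Of the 20 with neither, 6 were higher, with a median of 0.24 and a range of -0.24 to 0.70, and MANF, PDIA4 and DNAJC3 were among them. Over all genes tested, 5.28% were higher in GALNT7 KD, so both sets lay above that share. The difference between the sets was not tested. In GALNT7 OE, 4 of the 10 were higher and 2 lower, and 8 of the 20 were higher and 4 lower, where 22.9% of all genes were higher and 20.5% lower, so that the share of lower members was near that of all genes in both sets. A match describes the letters of the window and not a bound site. Only exact letters within the windows were searched, so a missing match does not show that a member lacks such an element.

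The wider pathway was followed in 5 further lists of 122 genes, of which 121 were tested in each comparison. In GALNT7 KD 19 were higher and 2 lower (15.7% and 1.65%, against 5.28% and 3.79% of all genes), and in GALNT7 OE 38 were higher and 30 lower (31.4% and 24.8%, against 22.9% and 20.5% of all genes). The knockdown count of 21 depended on the libraries used, as did that of all genes (539 to 1336 against 1623 with 1 library left out), at 4 without GALNT7 KD replicate 1 or without shControl replicate 1, 6 without shControl replicate 3, 9 without shControl replicate 2, 11 without GALNT7 KD replicate 2 and 19 without GALNT7 KD replicate 3. Of 33 other ER folding factors, 6 were higher in GALNT7 KD (18.2%). ERO1B, the second ER oxidase, came first, at 462 ± 24.8 normalised counts (SD, n=3) among the shControl libraries against 1306 ± 190.3 after knockdown (1.49, SE 0.120, adjusted p=0.00156). CLGN, a calnexin homologue, followed at 612 ± 46.8 and 1097 ± 49.2 (0.84, SE 0.0827, adjusted p=0.00305). Both were lower in GALNT7 OE, at -0.44 (adjusted p=0.00756) and -0.74 (adjusted p=0.00181).

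Of 23 other degradation factors 3 were higher in GALNT7 KD (13.0%, against 5.28% of all genes). Among them were EDEM2 (0.40, adjusted p=0.0416), which trims mannose from misfolded glycoproteins, and SELENOK (0.39, adjusted p=0.0214), a selenoprotein of the ER membrane. Of 19 other stress transducers and regulators 1 was higher (5.26%, near the 5.28% of all genes) and 2 were lower (10.5%, against 3.79%). The higher one was PPP1R15B (0.28, adjusted p=0.0233), a subunit of a phosphatase that acts on the target of PERK. The lower ones were TXNIP (-0.73, adjusted p=0.00044), a thioredoxin-binding protein, and ATF4 (-0.20, adjusted p=0.0162), the transcription factor translated after PERK is active. ATF4 was at 7127 ± 27.8 in shControl and 6184 ± 21.2 in GALNT7 KD, and it was higher in GALNT7 OE (0.46, adjusted p=7.1e-05). Of 26 translocation and N-glycosylation factors 3 were higher in GALNT7 KD (11.5%), including DAD1 (0.37, adjusted p=0.047) of the oligosaccharyltransferase and SPCS3 (0.25, adjusted p=0.0461) of the signal peptidase. Of 20 export and retrieval factors tested 6 were higher (30%), with KDELR3 (0.69, adjusted p=0.0347), a receptor that returns chaperones to the ER, and MCFD2 (0.54, adjusted p=0.0127), a cargo receptor subunit, in front.

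In GALNT7 OE, 22.9% of all genes tested were higher and 20.5% lower. The 33 folding factors outside the list were split into 10 higher (30.3%) and 12 lower (36.4%). They ran from TXNDC5 (1.05, adjusted p=9.8e-06), a thioredoxin-domain isomerase, to FKBP10 (-1.06, adjusted p=2.5e-05), a prolyl isomerase for collagen. Of 23 degradation factors 5 were higher (21.7%, near the 22.9% of all genes) and 6 lower (26.1%). NGLY1 (0.70, adjusted p=0.00025), which removes N-glycans in the cytosol, was at the upper end and TMEM129 (-0.47, adjusted p=0.00043), a ubiquitin ligase, at the lower end. Among 18 stress transducers tested 8 were higher (44.4%) and 6 lower (33.3%). The higher ones included EIF2S1 (0.86, adjusted p=4.8e-05), the target of PERK, and TRIB3 (0.76, adjusted p=0.00084), a gene induced by ATF4. TXNIP was at 8192 ± 64.2 in OE control and 432 ± 18.5 in GALNT7 OE (-4.24, SE 0.0529, adjusted p=1.1e-07), the widest difference of the pathway lists, and CREBRF fell by 1.81 on the log2 scale (adjusted p=8e-05). Of 26 translocation and N-glycosylation factors 11 were higher (42.3%) and 2 lower (7.69%). SEC11C (0.63, adjusted p=0.00179) and SSR3 (0.48, adjusted p=0.00022), a partner of SSR1, were among the higher ones. MAGT1 (-0.40, adjusted p=0.00357) and SSR4 (-0.26, adjusted p=0.0195) were the lower ones. Of 21 export factors 4 were higher and 4 lower (19.0% each, near the shares of all genes). They ran from SEC23A (0.71, adjusted p=0.00011), of the vesicle coat that leaves the ER, to SEC16A (-0.42, adjusted p=0.00264).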

How the data were processed

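RNA-seq was analysed in 12 libraries of CWR22RV1 and DU145 cells, 3 per group, grouped by the labels. Per the labels, RNA was extracted with a column kit and libraries were made with a stranded mRNA kit. The submitters' processing notes name FastQC, Salmon, DESeq2, R 3.5.3 and hg38, with no role or order, and an aligner or annotation release is not given in the sources used here. The authors deposited 1 table per line with a signal for 59424 genes, which is a normalised count, the reads of a gene divided by a size factor of the library. Each line was scaled by itself, so tests were made within a line. Dividing by the value of 1 read gave whole reads for 100% of values within 0.01, and the sums of these reads gave the depth. Identifiers were named with GENCODE 29 (GRCh38), which named 94.4% of them.

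The values were tested as log2(normalised count + 1) with limma 3.58.1 in R 4.3.3 (lmFit, eBayes with trend), for genes with a mean of at least 5 over the 6 libraries. P-values are two-sided and Benjamini-Hochberg adjusted over all genes tested, with a threshold of 0.05. Fold changes are on that log2 scale and are slightly understated for low genes. Alternatives were pseudocounts of 0.5 and 5, no filter, a minimum of 20, a threshold of 0.01, 75th percentile and TMM scaling, quantile normalisation, eBayes without trend, edgeR 4.0.16 quasi-likelihood and DESeq2 1.42.0 on recovered reads, a replicate block and each library left out. The script was tested on simulated data. All 33 matched members are named, with values per library for those called in either comparison. Of the other lists, at most the 2 highest and 2 lowest called genes per list with a mean of at least 50 and groups apart are named; a gene named in 1 comparison may have its other value given. Members and lists were chosen with earlier results of these data known. DERL3 and RNF5 found no match by name. GENCODE 29 exons gave lengths per kb.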

Additional observations from a re-analysis of the deposited data

How the results depend on the processing

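The 13 members higher in GALNT7 KD kept their sign under all 18 alternatives, and 7 of them (CALR, HERPUD1, HSPA5, MANF, PDIA3, PDIA4 and PDIA6) stayed past the threshold in each. The count was 9 at an adjusted p of 0.01 and with eBayes without trend, 16 with DESeq2, 9 to 15 with a library left out and 13 otherwise, apart from 10 with replicate 2 of both groups left out together, a setting chosen after their mitochondrial share was seen. In GALNT7 OE 12 of the 19 called members stayed past the threshold under all 17 alternatives, and 18 kept their sign. The count was 11 at an adjusted p of 0.01, 13 with eBayes without trend, 15 without a filter, 13 to 17 with a library left out and 18 or 19 otherwise except with the block below. Members with changes near 0 cannot be given a direction, and 3 libraries per group limit what small changes can be seen.

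Deviations of same-numbered samples correlated weakly, at -0.011 to 0.075 in CWR22RV1 and 0.016 to 0.043 in DU145. Differently numbered samples ranged from -0.064 to 0.074 in CWR22RV1 and from -0.045 to 0.0042 in DU145. In DU145 every same-numbered value was thus above every other, so a weak pairing is not excluded there. The labels only number the replicates, and the main fit took no pairs. With the replicate block, 13 members were called in GALNT7 KD and 15 in GALNT7 OE (12 higher, 3 lower, without CALR, P4HB, PDIA4 and XBP1), other pathway genes went to 10 and 60, and all genes to 1002 and 7405.

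The 1623 genes called in GALNT7 KD became 392 at an adjusted p of 0.01, 996 with eBayes without trend, 2642 with DESeq2, 408 with replicate 2 of both groups left out and 539 to 1336 with 1 library left out. The 21 other pathway genes became 4, 7, 39, 4 and 4 to 19 under these settings, 12 without a filter and 13 with 75th percentile scaling. At an adjusted p of 0.01, 5303 genes were called in GALNT7 OE. The cause of these shifts was not tested.

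Signs turned for 1 called member (PDIA4 in GALNT7 OE, log2 fold change 0.09) and otherwise for members not called, of which SEC24D (0.18) and WFS1 (0.15) in GALNT7 KD had the largest values. In GALNT7 OE, 75th percentile scaling gave EDEM1 -0.098, HERPUD1 -0.058, HSPA5 -0.038, PDIA4 -0.0069, SEC61B -0.051 and SEL1L -0.060. Quantile normalisation gave EDEM1 -0.095, HERPUD1 -0.055, SEC61B -0.048 and SEL1L -0.057. EDEM1 was at -0.0022 with TMM scaling and -0.0036 with DESeq2. In GALNT7 KD, quantile normalisation gave SEL1L -0.0050, and without replicate 2 of both groups OSTC was at -0.018, SEC24D at -0.26 and SEL1L at -0.045. With 1 library left out, EDEM1 ranged from -0.13 to 0.092 and SEL1L from -0.018 to 0.12 in GALNT7 OE. In GALNT7 KD, ERN1 ranged from -0.081 to 0.18, SEC24D from -0.068 to 0.34, SEL1L from -0.11 to 0.095 and WFS1 from -0.072 to 0.35.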
